A study of Mus musculus with 4 samples.

Results

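The comparison described here set day 25 inner ear organoids of a Tmprss3 knockout line against day 25 organoids of its wild-type parent line, over all cells and across the non-otic tissues. A barcode of these 2 libraries was kept as a cell if it had 500 or more genes and if mitochondrially encoded genes gave no more than 10% of its unique molecular identifiers (UMIs, tags that count original mRNA molecules), which left 20958 of the 35853 cells kept over all 4 libraries of the series. The wild-type library was R1/E, a mouse embryonic stem cell line of derived strain 129X1x129S1, and the knockout library was Tmprss3KO-GFPKI, which was made in R1/E and carries the same derived strain; the label names a knockout of Tmprss3 together with a knock-in of GFP. No agent was labelled for either group. The other pair of libraries held day 35 organoids of the same lines and is used only for values set side by side. Each genotype had 1 library at each age, so no difference between genotypes was tested, and every interval below is a 95% interval that covers counting error only. How many knockout clones were made, and how many organoids were pooled in a library, is not given in the sources used here.

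Inner ear organoids are grown from pluripotent stem cells as aggregates in which otic vesicles and hair cells arise beside epidermis, mesenchyme, muscle, fat, neurons and glia. Tmprss3 encodes a membrane-anchored serine protease whose loss causes deafness. Many genes discussed below are imprinted, which means that 1 parental copy is expressed and the other is silenced by marks such as DNA methylation set in the germ line. Others are Hox genes, homeobox transcription factors whose combination marks position along the body axis.

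The wild-type library held 9768 kept cells with 73025302 UMIs, and the knockout library held 11190 kept cells with 84439223 UMIs. Median UMIs per cell were 6166.5 in wild type and 6371 in knockout, and median genes per cell were 2032 and 2048. These libraries shared 142 barcodes, 1.43% of the wild-type and 1.26% of the knockout barcodes as deposited. Tmprss3 itself gave 18 UMIs in the wild-type library (0.246 CPM, which is a count scaled to the same library total for both) and 7 in the knockout library (0.0829 CPM). Because 3' counts may lie outside the deleted part, these UMIs do not check the knockout label. Cells of all 4 libraries were clustered together into 24 clusters, of which 17 were named by their markers and 7 stayed unnamed; the unnamed clusters held 38.8% of the wild-type and 40.4% of the knockout cells. The label inner ear organoid covers a small otic part at this age, since clusters that carried otic or hair cell markers held 200 wild-type and 178 knockout cells.

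Several imprinted growth regulators differed between the libraries in the same direction in nearly every tissue. H19, a long noncoding RNA, was higher in knockout organoids, while its neighbour Igf2, a fetal growth factor, was lower. Cdkn1c, which encodes the cyclin-dependent kinase inhibitor p57, and Grb10, an adaptor that restrains insulin and IGF receptor signalling, were lower by far larger factors. These genes are described first, with upstream sequences of some of them.

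The sequences below are the 250 bases upstream of the RefSeq start of 4 imprinted genes whose levels differed (build GRCm38.p6, written 5′ to 3′ on the strand of the gene). They are shown because imprinting acts through methylation of CG pairs, and CG pairs are in capitals. Methylation was not measured here. Grb10 lies at chr11:12037421-12037670, Igf2 at chr7:142658805-142659054, Zim1 at chr7:6696433-6696682 and Peg3 at chr7:6730420-6730669, all on the minus strand; Grb10 has 2 start sites and Igf2 has 4 in the RefSeq table, and the window with the most CG pairs is given.
Grb10: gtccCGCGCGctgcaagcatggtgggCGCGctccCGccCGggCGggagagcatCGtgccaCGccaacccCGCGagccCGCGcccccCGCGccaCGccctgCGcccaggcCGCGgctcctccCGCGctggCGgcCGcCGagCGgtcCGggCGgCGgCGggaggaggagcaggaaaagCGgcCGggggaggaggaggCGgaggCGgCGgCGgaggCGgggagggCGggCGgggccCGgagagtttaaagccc
Igf2: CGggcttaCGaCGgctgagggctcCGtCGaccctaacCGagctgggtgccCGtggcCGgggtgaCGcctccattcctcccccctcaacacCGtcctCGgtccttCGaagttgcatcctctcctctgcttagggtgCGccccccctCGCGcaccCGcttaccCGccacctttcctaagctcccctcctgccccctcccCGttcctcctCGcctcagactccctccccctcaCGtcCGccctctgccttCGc
Zim1: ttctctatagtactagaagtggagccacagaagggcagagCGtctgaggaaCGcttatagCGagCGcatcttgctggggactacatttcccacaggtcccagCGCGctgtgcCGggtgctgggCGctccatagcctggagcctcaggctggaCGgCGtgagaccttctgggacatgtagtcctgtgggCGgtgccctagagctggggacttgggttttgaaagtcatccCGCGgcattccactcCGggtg
Peg3: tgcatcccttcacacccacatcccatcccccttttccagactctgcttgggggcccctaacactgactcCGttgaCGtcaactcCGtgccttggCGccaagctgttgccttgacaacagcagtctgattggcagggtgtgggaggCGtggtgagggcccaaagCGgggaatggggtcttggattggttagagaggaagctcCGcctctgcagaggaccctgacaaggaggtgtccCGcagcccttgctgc
The Grb10 window holds 40 CG pairs, and 1.31% of the 32851 windows of this length in the table hold as many. The Igf2 window holds 22 (14.8% of windows hold as many), the Zim1 window 14 (29.4%) and the Peg3 window 8 (43.0%), against a median of 6. The count of CG pairs therefore differed widely among genes that were all lower, and Peg3, which was higher in knockout, had the fewest.

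H19 (chromosome 7, 142575529 to 142578143) gave 68501 UMIs in the wild-type and 336957 in the knockout library, 938 and 3991 CPM, a log2 ratio of knockout over wild type of 2.09 (interval 2.08 to 2.10). It was higher in all 16 non-otic clusters that had at least 100 cells in each library, with log2 ratios from 1.49 to 2.47. Igf2 (chromosome 7, 142650766 to 142666816) gave 62177 and 14124 UMIs, 851 and 167 CPM, a log2 ratio of -2.35 (-2.37 to -2.32). It was lower in all 16 clusters, from -4.35 in the larger cycling-like cluster to -1.51 in the fibrocyte or periotic mesenchyme-like cluster. H19 and Igf2 thus moved in opposite directions in every one of these clusters.

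Cdkn1c (chromosome 7, 143458339 to 143461050) gave 42228 and 3563 UMIs, or 578 CPM in wild type and 42.2 CPM in knockout, a log2 ratio of -3.78 (-3.83 to -3.73). The range over the 16 clusters ran from -5.60 in myogenic progenitor-like cells to -2.05 in astrocyte-like cells, all lower in knockout. Its wild-type level differed greatly between tissues, from 62.3 CPM in Schwann or satellite glia-like cells to 2633 CPM in the unnamed cluster 11. Other cyclin-dependent kinase inhibitors did not share this difference. Of the 7 measured, 1 was at least 2-fold lower (3.68% of all genes were), namely Cdkn1c itself. The others lay between Cdkn1a (p21) at -0.35 and Cdkn2c (p18) at 0.74.

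Grb10 (chromosome 11, 11930508 to 12038683) gave 2752 and 118 UMIs, 37.7 and 1.40 CPM, a log2 ratio of -4.75 (-5.03 to -4.49). It was lower in 15 of the 16 clusters, where knockout UMIs numbered 0 to 23 and wild-type UMIs 21 to 534. Neuron-like cells were the exception, with 44 wild-type and 30 knockout UMIs, 13.5 and 13.7 CPM, and a log2 ratio of 0.02. As background, Grb10 is transcribed from the maternal copy in most tissues and from the paternal copy in neurons. The neuron-like difference from other clusters was not tested.

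Zim1, a zinc finger gene on chromosome 7, gave 739 and 52 UMIs (10.1 and 0.616 CPM) and was lower in all 9 clusters that had at least 20 UMIs. Igf2r, the receptor that clears IGF2 from the cell surface, gave 3219 and 1555 UMIs, a log2 ratio of -1.26, and was lower in 16 of 16 clusters. Igf2os, a transcript antisense to Igf2, gave 302 and 27 UMIs; how strand entered the counting is not given in the sources used here, so reads of Igf2os and Igf2 cannot be told apart. Lower values were thus seen for maternally expressed (Cdkn1c, Grb10, Zim1, Igf2r) and paternally expressed (Igf2) genes.

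Several paternally expressed genes were higher in knockout by smaller factors. Mest, which encodes a hydrolase-like membrane protein, gave 44660 and 104461 UMIs, a log2 ratio of 1.02, and was higher in 15 of 16 clusters. Peg3, a zinc finger regulator next to Zim1, gave 12722 and 27752 UMIs, a log2 ratio of 0.92, and was higher in 16 of 16. Usp29 (0.54, higher in 14 of 14 clusters) and Snrpn (0.42, higher in 16 of 16), which encodes a splicing protein, lay in the same direction, as did the maternally expressed noncoding RNA Mirg (0.57, 16 of 16). Dlk1, a Notch-like transmembrane protein of the same cluster as Mirg, was abundant in both libraries at 161077 and 159080 UMIs, a log2 ratio of -0.23.

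Of the 24 imprinted genes listed, 22 had at least 50 UMIs over both libraries; 13 were higher and 9 lower, 2 of them at least 2-fold higher and 5 at least 2-fold lower. Over all 15573 genes with at least 50 UMIs, 44.4% were above a ratio of 1 and 55.6% below. Of these genes, 1.89% were at least 2-fold higher and 3.68% at least 2-fold lower, with an interval that left out 1. A median log2 ratio of 0.17 over the imprinted list, beside -0.03 over all genes, therefore hid members that lay far out on either side. Gnas (-0.03), Peg10 (-0.03) and Impact (0.02) were nearly level.

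**Figure D1:**
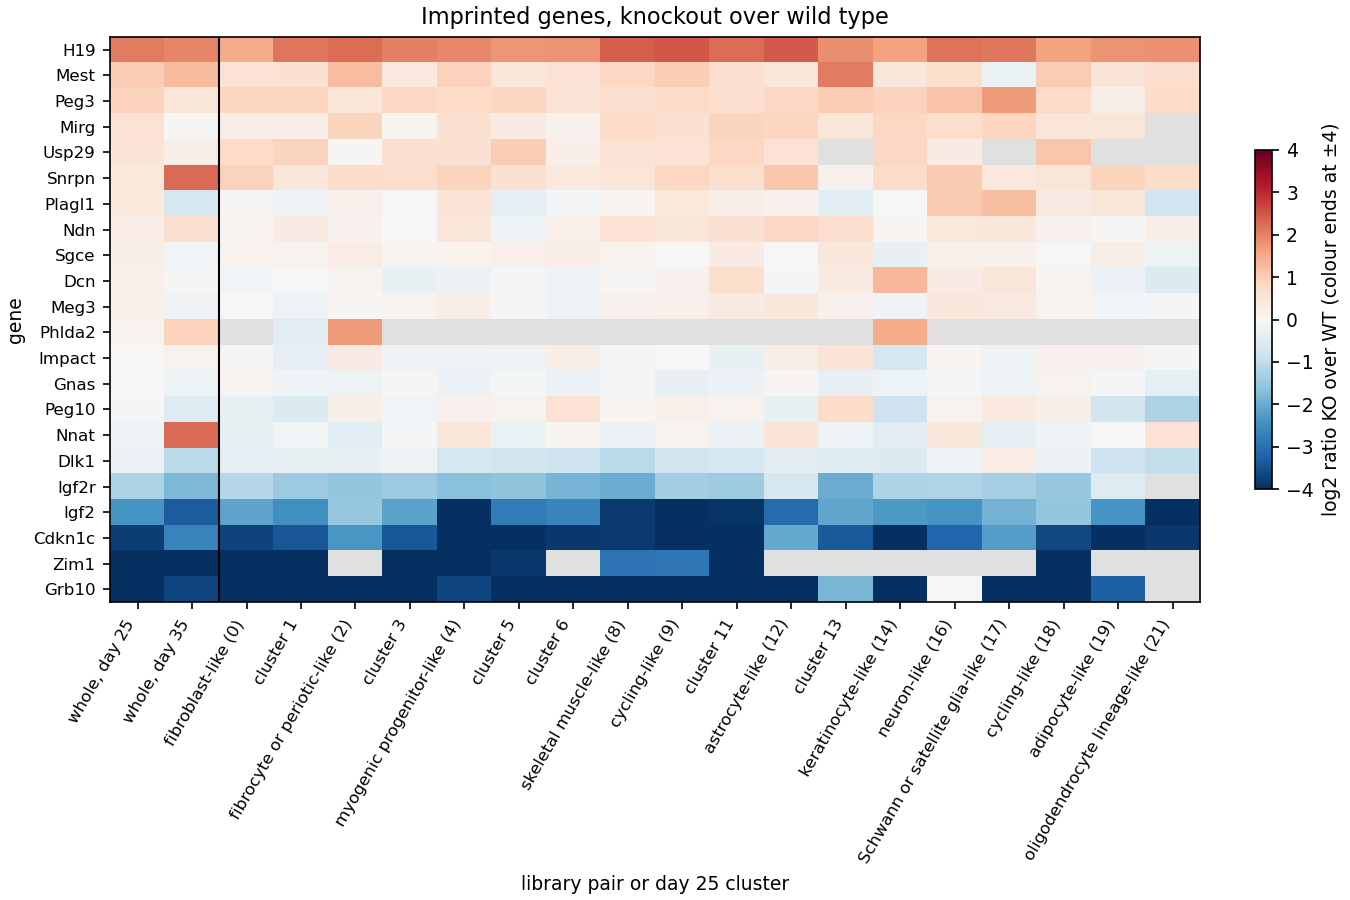
Log2 ratio of knockout over wild type for imprinted genes (one per line) in the whole day 25 and day 35 libraries and in day 25 non-otic clusters with at least 50 cells in each library. Red is higher and blue lower in knockout, and grey marks values with too few UMIs (under 20 in a cluster, under 50 in a whole library); H19 is red and Cdkn1c and Igf2 are blue in each day 25 column, and Grb10 is near white in the neuron-like column.

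Over the whole libraries, 295 genes were called higher and 573 lower in knockout, that is 1.89% and 3.68% of the 15573 genes. A gene was called when its ratio was at least 2-fold and its interval left out a ratio of 1. An immune-like cluster had the highest level of 125 of the genes called higher (42.4%), against 5.81% of all genes. Keratinocyte-like cells had the highest level of 151 of the genes called lower (26.4%), against 3.68% of all genes. A further 117 genes called lower (20.4%, against 12.6% of all genes) were most abundant in neuron-like cells and 91 (15.9%, against 4.82%) in the unnamed cluster 13. In sums over a whole library, fewer cells of a type and less RNA per cell cannot be told apart.

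When each cluster was given the same weight in both libraries, 270 genes were at least 2-fold higher and 190 at least 2-fold lower. These counts rest on the ratio alone, with no interval, over the 22 clusters with at least 10 cells in each library. At those equal tissue shares, 194 of the 295 genes called higher over the whole libraries (65.8%) kept a ratio of at least 2-fold, against 181 of the 573 called lower (31.6%). The immune-like cluster, with 0 wild-type cells, had no weight there, although 125 of the genes called higher were highest in it. An equal-share value existed for 278 of the genes called higher and 569 of those called lower. The 2 percentages therefore cannot show which calls reflect levels within tissues. Few cells carried some calls: in 108 of the genes called higher and 122 of those called lower, at least 50% of the UMIs of the higher library came from 10 cells. Without each gene's 10 highest cells in each library, 253 and 540 of them kept a ratio of at least 2-fold with an interval that left out 1, when no minimum was set on the UMIs left. With the minimum of 50 UMIs, 239 genes in all were called higher and 559 lower at that setting.

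**Figure D2:**
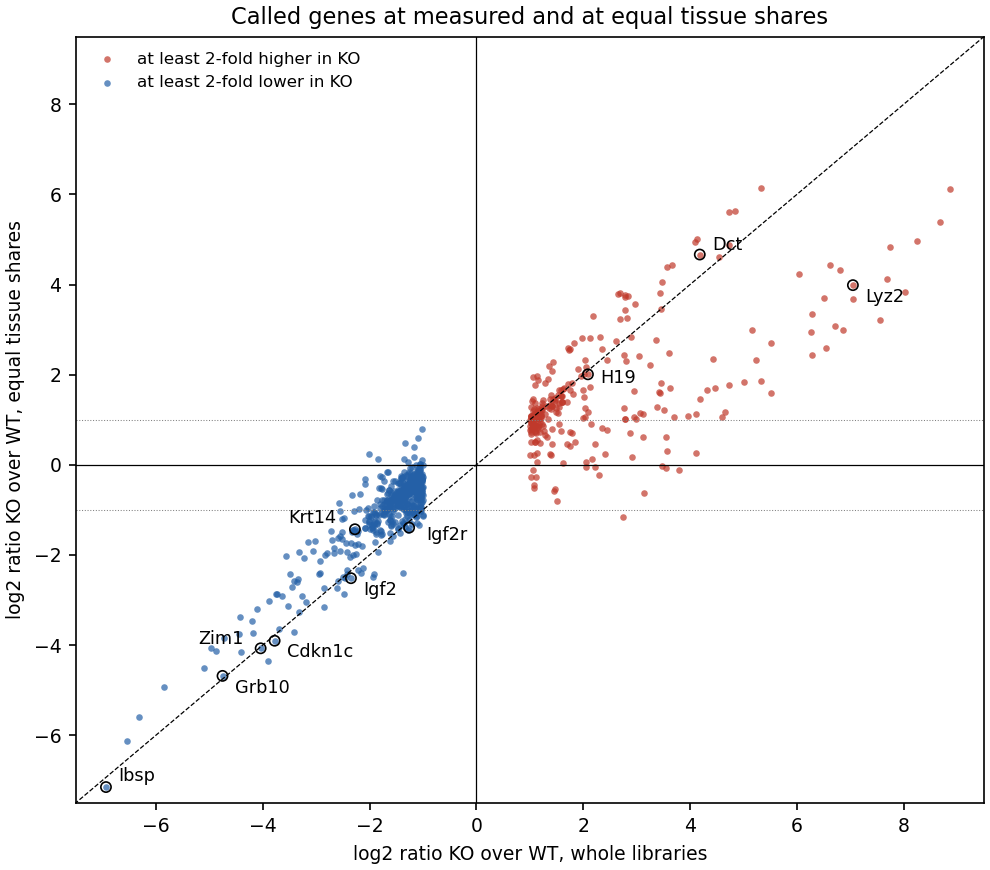
Log2 ratio of knockout over wild type of each called gene in the whole libraries (horizontal) and at equal tissue shares (vertical); genes with no value at equal shares are left out. H19, Igf2, Cdkn1c and Grb10 lie on or near the dashed line of equality, while Krt14 moves from -2.27 to -1.43, toward 0.

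The genes with the largest ratios in favour of knockout were those of macrophages. Tyrobp, an adaptor of myeloid receptors, gave 0 wild-type and 1835 knockout UMIs, at least 529-fold higher when the wild type is set to 3 UMIs. The complement genes C1qa (0 and 1707 UMIs, at least 492-fold), C1qc (0 and 1444, at least 416-fold) and C1qb (3 and 1628) behaved alike. Lyz2, which encodes lysozyme, gave 59 and 9038 UMIs, a log2 ratio of 7.05 (6.68 to 7.44), and the Fc receptor chain Fcer1g gave 16 and 2440. The chemokines Ccl4 (0 and 1005 UMIs), Ccl3 (1 and 477) and Ccl12 (11 and 1184), the scavenger receptor Marco (1 and 937), Ms4a7 (0 and 683), Clec4n (0 and 654), Fcrls (0 and 357), Adgre1 (0 and 323), which encodes F4/80, and Clec4a2 (1 and 352) completed the 15 genes named by rank.

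These genes came from a single cluster of 65 knockout cells, a share of 0.581% (exact interval 0.449% to 0.740%). It held 0 of 9768 wild-type cells, with an exact interval up to 0.0378%. Between 86.6% and 93.7% of the knockout UMIs of each of the 15 genes lay in this immune-like cluster. Lyz2 was also higher in each of 13 non-otic clusters: outside the immune-like cluster it stood at 10.3 CPM in knockout and 0.808 CPM in wild type, with 90.5% of its knockout UMIs inside that cluster. The part of RNA released by the immune-like cells in the Lyz2 of other clusters was not tested. Without the immune-like cluster, 197 genes were called higher and 581 lower.

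Among the genes with the largest ratios in favour of wild type, Grb10, Cdkn1c, Zim1 and Igf2os have been described. In 8 of the 11 others at least 50% of the wild-type UMIs lay in 10 cells; the exceptions were Stfa3, Rhox13 and 1700013H16Rik. Ibsp, bone sialoprotein, gave 1481 and 14 UMIs (log2 ratio -6.93), and 95.2% of its wild-type UMIs lay in 10 cells. Fabp2, an intestinal fatty acid-binding protein, gave 115 and 0 UMIs, at least 44.3-fold lower in knockout, with 99.1% in 10 cells. Scgb3a1, an airway secretoglobin (243 and 3 UMIs), and Cym, the gastric protease chymosin (274 and 4), were as concentrated, at 94.2% and 98.2%. Without its 10 highest cells in each library Cym stood at -0.95 and Scgb3a1 at -2.43, in place of -6.31 (-8.19 to -4.93) and -6.55 (-8.84 to -4.99). The values without those cells rest on few UMIs, since the knockout library held 4 of Cym and 3 of Scgb3a1 in all.

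The mucosal keratins Krt13 (207 and 11 UMIs, -4.44) and Krt4 (359 and 28, -3.89), the cysteine protease inhibitor Stfa3 (1399 and 121, -3.74) and AU040972 (129 and 7, -4.41) were most abundant in keratinocyte-like cells. The remaining genes named by rank were the homeobox gene Rhox13 (142 and 11, -3.90), 1700013H16Rik (357 and 14, -4.88) and Dppa5a (1371 and 170, -3.22), an RNA-binding protein of pluripotent cells. For Dppa5a, 87.2% of the wild-type UMIs lay in 10 cells. Without the 10 highest cells in each library, the ratios of 1700013H16Rik (-8.37), Rhox13 (-5.18), Stfa3 (-4.97) and Krt4 (-5.62) were further from 0. The knockout library held 14, 11 and 28 UMIs of 1700013H16Rik, Rhox13 and Krt4 in all. Few were left without those cells, so these ratios cannot show a larger difference. The pluripotent-like cluster held 13 wild-type and 2 knockout cells.

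Across the 16 clusters, 11425 genes had at least 20 UMIs in 6 or more clusters; 208 of them (1.82%) were higher and 164 (1.44%) lower in knockout in every cluster measured. Besides H19 and Lyz2, the higher genes named by their median over clusters included Atp8b2, a phospholipid flippase (215 and 837 UMIs, log2 ratio 1.75, higher in 13 of 13), and Barx1, a mesenchymal homeobox gene (412 and 1399, 1.55, 14 of 14). Tac2, which encodes neurokinin B (141 and 416, 1.35, 7 of 7), the G protein subunit Gng10 (94 and 328, 1.59, 6 of 6) and the nucleotide kinase Nme3 (134 and 333, 1.10, 9 of 9) were among them. Cks1brt (52 and 449, 2.90), Gm7334 (810 and 2693, 1.52) and AY036118 (2031 and 6382, 1.44) were also higher in every cluster measured, but each resembles other transcribed copies, so the assignment of their reads is uncertain. Of these genes Barx1 belongs to a marker set, the skeletogenic one.

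Of the genes lower in every cluster measured, Zim1, Cdkn1c and Igf2 are imprinted, and Alx1, a homeobox gene of cranial mesenchyme (490 and 93 UMIs, -2.61, lower in 9 of 9), belongs to mesenchyme. Oc90, an otoconial protein (4695 and 648, -3.07), is a product of otic tissue. Krt1 (2251 and 365, -2.83) and Krt14 (17390 and 4157, -2.27) are epidermal products, with 91.1% of wild-type Krt14 UMIs in keratinocyte-like cells. Coch, cochlin (828 and 205, -2.22), had 39.1% of its wild-type UMIs in fibrocyte or periotic mesenchyme-like cells. Slpi, a secreted protease inhibitor (2473 and 582, -2.30), and Reg3g, an antimicrobial lectin (3553 and 802, -2.36), were lower in 9 of 9 and 14 of 14 clusters. At equal tissue shares Oc90 stood at -1.91, Slpi at -1.02 and Krt1 at -2.00. The part of free RNA in these low levels outside the source tissue was not tested.

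Tissue content was first read without clusters, from summed markers in the whole libraries. Epidermal, neuronal, cartilage and otic fibrocyte markers were lower in knockout, and fibroblast, fat, melanocyte and immune markers were higher. Keratinocyte markers summed to 1332 CPM in wild type and 507 CPM in knockout (log2 ratio -1.39), with 13 of 13 lower and 10 of them at least 2-fold. Neuron markers summed to 489 and 256 CPM (-0.93), with 14 of 14 lower and 5 at least 2-fold. Astrocyte markers summed to 468 and 364 CPM (-0.36), with 11 of 12 lower and Gfap, the astrocyte filament protein, at 3561 and 1234 UMIs (-1.74). These sets are read against 55.6% of all genes below a ratio of 1 and 3.68% at least 2-fold lower. At equal tissue shares the median of the keratinocyte set was -0.52 and that of the neuron set -0.28, while the astrocyte set stood at 0.04 and the hair cell set at 0.01.

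Cartilage and otic capsule markers lay in the same direction. Chondrocyte markers summed to 164 and 85.0 CPM (-0.95), with 9 of 10 lower. Markers of inner ear fibrocytes or periotic mesenchyme summed to 131 and 79.6 CPM (-0.71), with Otor at 2593 and 561 UMIs (-2.42), Coch at -2.22 and the transcription factor Pou3f4 at -1.46. Hair cell markers summed to 132 and 71.0 CPM (-0.90) and otic epithelium markers to 424 and 320 CPM (-0.41, and -1.17 without the 2 most abundant). Pluripotency markers had the lowest ratio, at 29.1 and 3.45 CPM (-3.08). Skeletogenic markers summed to 47.9 and 34.9 CPM (-0.45), with 7 of 9 lower and 4 of them at least 2-fold. Ibsp, Bglap (105 and 16 UMIs) and Sp7 (72 and 27) were among those lower. Barx1 (412 and 1399, 1.55) and the osteocyte gene Dmp1 (273 and 623, 0.98) were higher.

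Fibroblast markers summed to 7053 and 10124 CPM (0.52), with 12 of 12 higher and Mfap5, a microfibril protein, at 2659 and 8920 UMIs (1.54). Adipocyte markers summed to 995 and 1364 CPM (0.46), with 8 of 8 higher, among them Cfd, adipsin (1240 and 4011, 1.48), and the lipid droplet protein Cidec (1.10). Without the 2 most abundant markers of that set the ratio was 0.91. Melanocyte markers summed to 8.35 and 20.2 CPM (1.27, and 4.21 without the 2 most abundant): Dct (11 and 231 UMIs), Mlana (10 and 268), Tyrp1 (4 and 50) and Pmel (65 and 280) were each at least 2-fold higher, although 90.0% of knockout Dct UMIs lay in 10 cells. Markers of immune cells summed to 14.7 and 148 CPM (3.32, and 6.27 without the 2 most abundant), with 10 of 10 at least 2-fold higher. Over all genes 44.4% were above a ratio of 1 and 1.89% at least 2-fold higher.

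Muscle, vessels and dividing cells differed less. Skeletal muscle markers summed to 5829 and 5330 CPM (-0.13), myogenic progenitor markers to 219 and 250 (0.20), cardiac muscle markers to 983 and 834 (-0.24), cycling markers to 818 and 933 (0.19), endothelial markers to 34.3 and 30.7 (-0.16) and pericyte or smooth muscle markers to 738 and 698 (-0.08, but 0.37 without Acta2 and Des). Oligodendrocyte lineage markers summed to 73.7 and 90.2 CPM (0.29), neural progenitor markers to 69.0 and 54.0 (-0.35, and -1.18 without the 2 most abundant), gut or liver endoderm markers to 22.6 and 13.2 (-0.78) and ependymal or choroid plexus markers to 11.7 and 7.82 (-0.58). Schwann or satellite glia markers summed to 440 CPM in both libraries, but that sum was set by Fabp7 and Ngfr: without them the log2 ratio was 0.70, and 9 of 11 members were higher. Erythroid markers stood at 0.192 and 0.249 CPM, near 0 in both.

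**Figure D3:**
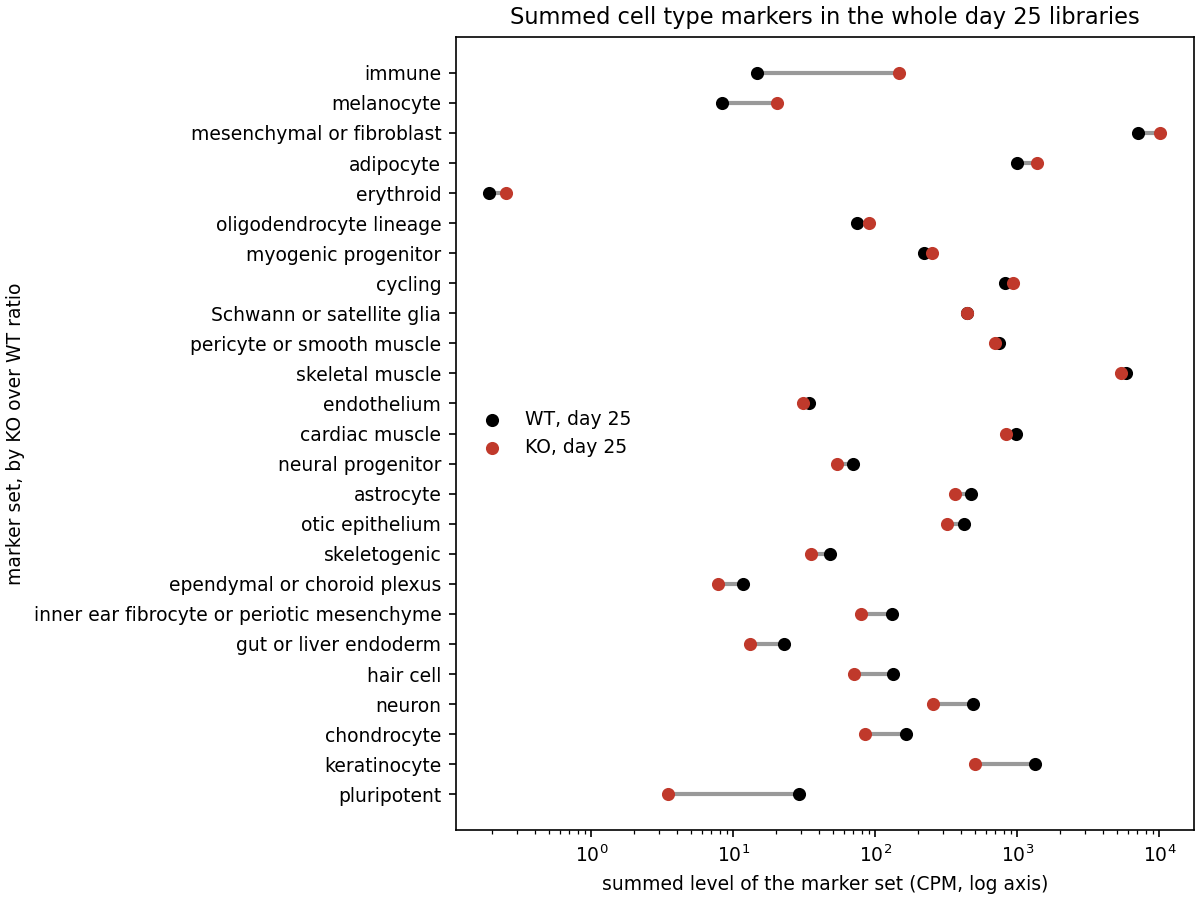
Summed level of each cell type marker set in the whole day 25 libraries, in CPM on a log axis; black points are wild type, red points knockout, and a grey line joins the pair. Sets are ordered by ratio, from pluripotent markers (29.1 to 3.45 CPM) at the bottom to immune markers (14.7 to 148 CPM) at the top.

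Shares of cells could be compared for 6 non-otic classes whose leading genes did not differ by genotype. Astrocyte-like cells made up 7.20% of wild-type cells (703 cells) and 3.75% of knockout cells (420), a ratio of 0.522 (interval 0.461 to 0.589). With each library clustered alone, clusters named astrocyte-like held 211 and 395 cells, a ratio of 1.63. In that wild-type clustering a further 504 cells, in a cluster led by Fgfbp3, Fabp7 and Hes5, stayed unnamed. The joint astrocyte-like cluster has these 3 genes among its leading genes, so the ratio of 1.63 cannot show a reversed direction. Neuron-like cells made up 5.56% (543) and 2.65% (296), a ratio of 0.476 (0.412 to 0.549). Skeletal muscle-like cells made up 5.59% (546) and 4.10% (459), a ratio of 0.734 (0.647 to 0.832). Cycling-like cells were the class with the larger knockout share, at 7.82% (764) and 9.51% (1064), a ratio of 1.22 (1.11 to 1.34).

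Myogenic progenitor-like cells made up 6.03% and 6.58% (589 and 736 cells; ratio 1.09, 0.977 to 1.22), and oligodendrocyte lineage-like cells 0.768% and 0.867% (75 and 97 cells; ratio 1.13, 0.827 to 1.55). Both intervals include a ratio of 1; the second ratio was 0.689 at a finer clustering. In fibroblast-, periotic-, keratinocyte-, Schwann- and adipocyte-like clusters a leading gene itself differed at least 2-fold between genotypes (among them Mfap5, Otor, Krt14, BC100530, Cidec and Cfd), so their sizes are given only as the cells behind the values that follow. Unnamed cluster 11, led by Myog, Cck and Vgll2, held 434 wild-type and 755 knockout cells, and Cck was at least 2-fold higher there. The skeletal muscle-like share leaves out that cluster, so it does not stand for all muscle lineage cells.

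Hox genes were lower over the whole knockout library. Of 25 measured, 24 were below a ratio of 1 (55.6% of all genes were) and 9 were at least 2-fold lower (3.68% of all genes were), with a median log2 ratio of -0.68 (-0.65 at equal tissue shares) and a summed level of 166 CPM in wild type and 101 CPM in knockout. Hoxb5 gave 390 and 120 UMIs (-1.91), Hoxb9 146 and 61 (-1.47), Hoxb4 739 and 356 (-1.26), Hoxb8 211 and 103 (-1.24), Hoxa5 654 and 320 (-1.24) and Hoxc4 878 and 479 (-1.08). Hoxd9, at 0.20, was the member above a ratio of 1. Members of the HoxA, HoxB and HoxC clusters were among the 9.

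The Hox difference was not uniform over tissues. In astrocyte-like cells 24 of 24 measured Hox genes were lower and 17 at least 2-fold (median -1.79; 47.0% of all genes were below 1 there). Of all genes with at least 50 UMIs in astrocyte-like cells, 1.06% were called lower, while Hox genes there needed 20 UMIs. Hoxc9 gave 130 and 12 UMIs in these cells (-2.76), Hoxb8 59 and 6 (-2.62) and Hoxa5 123 and 17 (-2.18). In neuron-like cells 19 of 21 were lower and 15 at least 2-fold (median -1.57; 44.4% of all genes below 1), with Hoxc5 at 126 and 11 UMIs (-2.94), Hoxd4 at 105 and 10 (-2.82) and Hoxc4 at 300 and 37 (-2.45). In neuron-like cells 1.14% of all genes with at least 50 UMIs were called lower. Neural Hox genes of several paralogous groups were thus lower together.

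The unnamed clusters 1 and 3 showed the same direction, with 13 of 15 lower (median -1.45; 61.5% of all genes below 1) and 16 of 16 lower (median -1.38; 59.6% below 1). In cluster 3 Hoxa9 gave 95 and 16 UMIs (-2.82) and Hoxa10 201 and 55 (-2.12). In fibrocyte or periotic mesenchyme-like cells 6 of 6 measured Hox genes were higher, 4 of them at least 2-fold (median 1.46; 57.2% of all genes above 1): Hoxc9 gave 10 and 32 UMIs (1.60), Hoxb2 11 and 29 (1.32), Hoxa3 4 and 17 (2.01) and Hoxc6 3 and 29 (3.19, interval 1.50 to 5.55). Of all genes with at least 50 UMIs in the fibrocyte or periotic mesenchyme-like cells, 1.20% were called higher. Fibroblast-like cells lay between, with 16 of 20 lower (median -0.41), and cycling-like and myogenic progenitor-like cells had 10 of 20 and 10 of 18 lower. The difference between tissues was not tested.

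**Figure D4:**
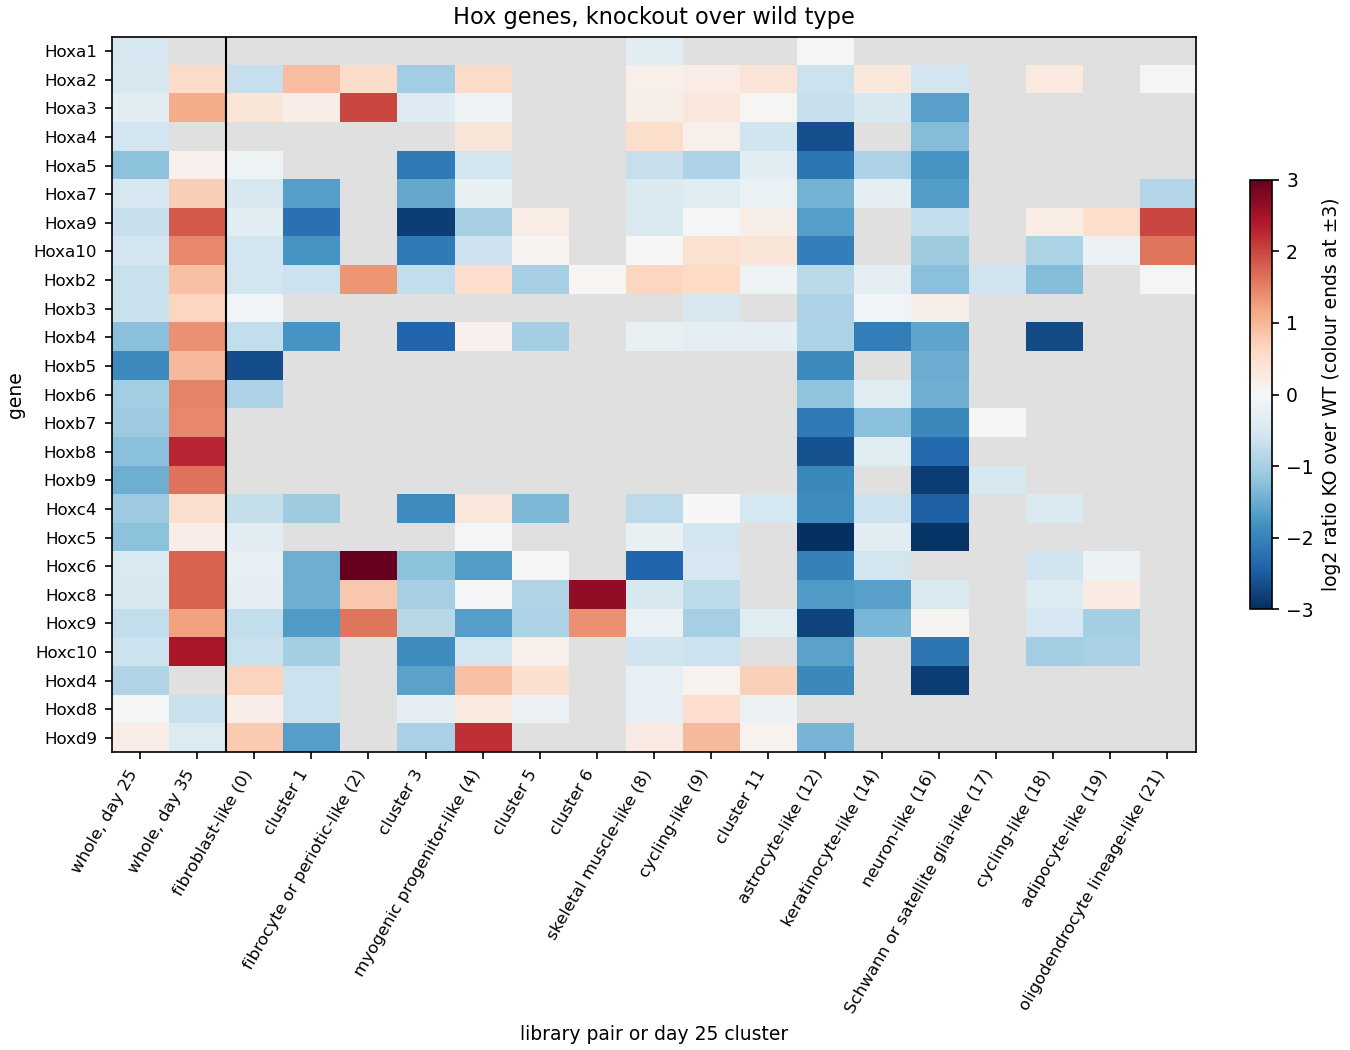
Log2 ratio of knockout over wild type for Hox genes in the whole day 25 and day 35 libraries and in day 25 non-otic clusters with at least 50 cells in each library; grey marks too few UMIs. The astrocyte-like, neuron-like and cluster 3 columns are mostly blue (lower in knockout), the fibrocyte or periotic column holds red cells, and the whole day 35 column is mostly red.

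Keratins, the filament proteins of epithelia, were all lower: 15 of 15, against 55.6% of all genes, with 11 at least 2-fold lower, against 3.68%, and a median of -1.33, from 1065 CPM summed in wild type to 403 CPM in knockout. The basal keratins Krt5 (7459 and 2700 UMIs, -1.68) and Krt15 (-1.72) stood with Krt14. At equal tissue shares the median of the list was -0.62, and the simple-epithelium keratins Krt18 (13482 and 8149 UMIs, -0.94) and Krt8 (-0.86) moved to 0.07 and -0.01. Within keratinocyte-like cells (623 wild-type and 328 knockout cells, 9641 genes measured) 1.90% of genes were called higher and 1.59% lower, and the class's own markers summed to 14665 and 10150 CPM, with 11 of 13 lower.

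The genes with the largest ratios within keratinocyte-like cells each came from 10 or fewer cells of the higher library. They were secretory products: Bpifa1, an airway protein (62 and 2468 UMIs, 9 knockout cells), Sftpc, a lung surfactant protein (3 and 430, 10 cells), the salivary genes Dcpp1 (0 and 427, 5 cells) and Dcpp2 (0 and 108, 3 cells), and the casein Csn3 (1 and 162, 8 cells) in knockout. In wild type they were Tff3, a trefoil factor (331 and 0 UMIs, 6 cells), Scgb3a1 (222 and 0, 3 cells), Apoa4 (118 and 0, 7 cells), Cym (260 and 1) and Fabp2 (105 and 0), the last 2 from 1 cell each. Each of these genes was chosen for a large ratio between the libraries in this class, so their difference between libraries is no separate result. Gut or liver endoderm markers in this class stood at 47.5 and 28.9 CPM.

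In neuron-like cells (8777 genes) 2.08% of genes were called higher and 1.14% lower. The calcitonin gene Calca gave 532 and 8 UMIs (-5.48) from 8 wild-type cells, Pomc, the opioid and melanocortin precursor, gave 256 and 14 (-3.62), Oc90 82 and 0 and 1700013H16Rik 161 and 0. Cdkn1c (1041 and 78) and H19 (1000 and 3015) followed the pattern of other tissues. Higher genes included Ptgds, prostaglandin D synthase (206 and 630, 2.19), the chemokine Ccl7 (58 and 198), the interneuron transcript Dlx6os1 (14 and 67, 2.83) and Pvalb, parvalbumin (19 and 89, from 6 knockout cells). With the highest doublet scores removed, Ptgds stood at -0.20 and Pomc at 0.024. Hair cell markers, which include Pvalb, stood at 82.0 and 109 CPM in this class. Otic epithelium markers, which include Oc90, stood at 162 and 173 CPM.

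In astrocyte-like cells (10142 genes) 0.759% were called higher and 1.06% lower, and astrocyte markers summed to 2014 and 2105 CPM. Grb10 gave 99 and 0 UMIs, 4833423E24Rik 54 and 0, Igf2 2292 and 170 (-3.08), 1700013H16Rik 125 and 9 and Krt15 101 and 6; keratinocyte markers in this class summed to 211 and 110 CPM. H19 (2297 and 7875, 2.45), the antimicrobial peptide Camp (13 and 77, 7 cells), the chemokine Ccl11 (15 and 65), haptoglobin Hp (22 and 64, 13 cells) and the hair keratin Krt35 (62 and 148, 10 cells) were higher. Hp stood at -0.82 with the highest doublet scores removed.

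Schwann or satellite glia-like cells numbered 136 in wild type and 497 in knockout, and 1.80% of 6706 genes were called higher and 0.567% lower. The higher genes were H19 (444 and 6934 UMIs, 2.11), Peg3 (30 and 354, 1.70), Prss35 (2 and 58) and the muscle regulators Myog (29 and 438, 2.06) and Vgll2 (1 and 51). Myogenic progenitor markers in this class stood at 41.1 CPM in wild type and 109 CPM in knockout and skeletal muscle markers at 611 and 797 CPM; their part in the Myog ratio was not tested. Cdkn1c (50 and 39, -2.21), Igf2 (127 and 125, -1.88), the lipocalin Lcn2 (80 and 106, -1.45), Trp53i11 (40 and 49, -1.56) and Hmga2 (40 and 54, -1.42), a chromatin protein of growing cells, were lower. Counts rest on more than 3 times as many cells in knockout, so equal UMIs mean a lower level there.

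In adipocyte-like cells (136 cells in each library, 6458 genes) 1.05% were called higher and 0.898% lower, and 8 of 8 adipocyte markers were higher, from 22324 to 31801 CPM summed. Cfd gave 981 and 3590 UMIs (1.41), Cox8b, a respiratory subunit of brown fat and muscle, 67 and 378 (2.03), Hpx, hemopexin, 56 and 301 (1.96), H19 299 and 1420 and the interferon-inducible Ifi27l2a 4 and 357, almost all from 12 cells. The contractile genes Ttn (93 and 9), Mylpf (485 and 191) and Acta1 (475 and 195) were lower beside Cdkn1c and Igf2. Skeletal muscle markers in this class summed to 1181 and 401 CPM, with 14 of 14 lower; their source was not tested.

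In fibroblast-like cells (1037 and 1772 cells, 10925 genes) 1.10% were called higher and 0.851% lower, and their markers summed to 23972 and 29313 CPM. Grb10 (241 and 7 UMIs), Zim1 (178 and 8), Cdkn1c (3970 and 582), Slpi (121 and 5) and Reg3g (403 and 117) were lower. The higher genes were Lyz2 (1 and 138), Cks1brt (6 and 86) and the major urinary proteins Mup16 (2 and 91), Mup17 (36 and 496) and Mup20 (29 and 271), near-identical paralogs whose reads cannot be assigned with certainty. In 10 knockout cells lay 78.0%, 59.3% and 69.7% of the UMIs of these Mup genes, and in 10 wild-type cells 78.5% of Slpi and 73.0% of Reg3g. Over the whole libraries, 14 of 18 collagens were higher (median 0.49, and 0.26 at equal shares), such as Col3a1 (130609 and 237878 UMIs, 0.66) and Col4a1 (0.79), while the cartilage collagens Col9a1 (1895 and 575, -1.93) and Col2a1 (-0.68) were lower.

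Fibrocyte or periotic mesenchyme-like cells numbered 614 and 624, and 1.20% of 9532 genes were called higher and 0.682% lower. Coch gave 324 and 2 UMIs (-7.42, interval -10.47 to -5.56), Col9a1 581 and 62 (-3.31), Grb10 141 and 2, Reg3g 252 and 13 and the homeobox gene Rhox5 53 and 2. Chondrocyte markers in this class summed to 497 CPM in wild type and 92.3 CPM in knockout, with 9 of 11 lower and none higher. Higher genes were H19 (3008 and 14933, 2.23), the chemokine Ccl7 (405 and 1216, 1.50), the membrane protein Myadm (31 and 134, 2.03), renin, Ren1 (10 and 52), and Zc3h11a (7 and 46). Few cells carried several of these values: 10 wild-type cells held 63.6% of the Coch UMIs, 55.2% of Col9a1, 82.1% of Reg3g and 86.8% of Rhox5 in this class. At resolution 2.0 a separate chondrocyte-like cluster led by Otor, Col2a1, Col9a1 and Coch held 47 wild-type and 5 knockout cells, so the number of such cells and their level within the class cannot be told apart here.

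Imprinted genes were among the named genes of both muscle lineages. In myogenic progenitor-like cells (8309 genes; 0.554% called higher, 0.806% lower) Cdkn1c gave 5623 and 146 UMIs (-5.60), Igf2 2912 and 197 (-4.22), Grb10 231 and 23, Alx1 54 and 2 and the Wnt inhibitor Wif1 51 and 12. H19 (2654 and 12604), Myadm (59 and 222), AY036118 (88 and 318), Gm8797 (354 and 1100) and Gm7334 (46 and 167) were higher. In skeletal muscle-like cells (9268 genes; 1.06% higher, 0.906% lower) Grb10 gave 534 and 10 UMIs (-5.50), Igf2 8176 and 488 (-3.83), Cdkn1c 5174 and 308 (-3.83), Igf2os 132 and 4 and Rhox13 59 and 0. H19 (10595 and 48692, 2.44), Cpne2 (35 and 147), Mia (74 and 247), the glucocorticoid-activating enzyme Hsd11b1 (56 and 164) and Rnaset2a (84 and 232) were higher. Muscle markers themselves were close to level within both classes, at 901 and 913 CPM in progenitors and 49735 and 55387 CPM in muscle.

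In cycling-like cells (10530 genes) 0.845% were called higher and 0.988% lower. Cdkn1c gave 5940 and 280 UMIs (-4.88), Grb10 280 and 18, Alx1 88 and 8, and Otor 197 and 8 and Ibsp 68 and 2, the last 2 with at least 98.0% of wild-type UMIs in 10 cells. H19 (4173 and 24323, 2.07), Lyz2 (2 and 78), Cks1brt (8 and 127), the oligodendrocyte gene Bcas1 (10 and 82) and the neuropeptide galanin, Gal (4 and 52, 16 cells), were higher. Cell cycle genes were close to level here, with 15 of 26 higher and a median of 0.06. In oligodendrocyte lineage-like cells (3889 genes; 1.08% higher, 0.669% lower) H19 (268 and 1111), the Notch target Hes5 (105 and 277, 1.16), Apoe (166 and 411, 1.07), 1500015O10Rik and AY036118 were higher, and Igf2 (145 and 7), Cdkn1c (232 and 19), Krt17 (212 and 3, 9 cells), Krt18 (71 and 9) and Hspb1 (74 and 13) lower; keratinocyte markers in this class summed to 595 and 71.8 CPM.

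Other gene lists are read against 44.4% of all genes above a ratio of 1 and 55.6% below, and most had medians within 0.3 of 0. Of 13 mitochondrially encoded genes 12 were lower (median -0.23), while mt-Atp8, whose reading frame overlaps mt-Atp6, gave 3086 and 7978 UMIs (1.16) and was higher in 16 of 16 clusters. Nuclear oxidative phosphorylation genes were higher in 21 of 26 (median 0.10). Actin monomer-binding and thymosin genes were lower in 13 of 18 (median -0.15), with Capg, a capping protein, lowest at 4936 and 2309 UMIs (-1.31, lower in 16 of 16 clusters). Immediate early genes were higher in 12 of 20 (0.27) and acute phase and chemokine genes in 14 of 18 (0.28). Cell cycle genes were higher in 17 of 26 (0.08), cholesterol synthesis genes lower in 16 of 20 (-0.12) and Wnt genes lower in 18 of 23 (-0.15).

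Interferon response genes had a median of 0.01, BMP genes -0.02, Notch genes -0.04, retinoic acid genes -0.07, hypoxia and glycolysis genes -0.09, stress response genes -0.01, metalloproteinases -0.05, osteogenic genes -0.07, midkine and pleiotrophin genes 0.13 and metallothioneins 0.10. The BMP, Notch and stress response medians changed sign with TMM scaling (0.026, 0.0029 and 0.038). Serine proteases and their inhibitors, the family of Tmprss3, were lower in 12 of 14 (median -0.79), but stood at -0.02 at equal tissue shares. Neuropeptides and granins were lower in 12 of 17 (median -0.54; -0.04 at equal shares), with Calca at 720 and 87 UMIs (-3.26) and Cartpt at -2.55. Genes that neighbour Tmprss3 on chromosome 17 were lower in 8 of 12 (median -0.13); the trefoil factors among them split, with Tff2 (54 and 2 UMIs) and Tff3 (453 and 143) lower and Tff1 (7 and 56) higher. No chromosome stood apart, with medians from -0.08 to -0.01.

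Set beside the day 35 pair of libraries, the imprinted differences described first had the same sign, and many others did not. At day 35 H19 stood at 1.94, Igf2 at -3.32, Cdkn1c at -2.67, Grb10 at -3.66, Zim1 at -6.40 (204 and 3 UMIs, interval -8.69 to -4.83) and Igf2os at -2.83, against 2.09, -2.35, -3.78, -4.75, -4.04 and -3.69 at day 25. In the day 35 pair 73.9% of genes were above a ratio of 1 (median 0.23 over 14276 genes), so that background differs from day 25. Of the genes called higher at day 25, 135 were measured at day 35 and 77 (57.0%) were above 1 there. Of those called lower, 377 were measured and 124 (32.9%) were below 1.

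Hox genes were among those that turned: 20 of 22 were higher in knockout at day 35 (median 1.18), against 24 of 25 lower at day 25. Neuron markers (median 1.49) and astrocyte markers (1.70) were higher at day 35 too. Keratins (median 0.44, 12 of 15 higher) and chondrocyte markers (0.42) were near the day 35 background, while periotic markers were lower at both ages (-1.88 and -1.46) and adipocyte markers higher at both (1.72 and 0.67). Snrpn and the brain-expressed Nnat stood at 2.28 and 2.26 at day 35, against 0.42 and -0.16 at day 25. Neuron-like and astrocyte-like cells numbered 5 and 12 in the wild-type day 35 library, against 24 and 308 in knockout. Whether age, culture or library made these differences cannot be told apart with 1 library per genotype and age.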

How the data were processed

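Counts were the unit of each matrix: the authors deposited raw UMI counts per gene and barcode from 10x Genomics v2 3' libraries, aligned to mm10 (GRCm38) with Cell Ranger 2.1.0, and bcl2fastq, Seurat 2.3.1 and R 3.5.1 were also listed, per the submitters' processing notes. The members, gene lists and marker sets described here were chosen with earlier results of these data known.

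Kept barcodes had at least 500 genes and at most 10% mitochondrial UMIs. UMIs of kept cells were summed per library and scaled to 1e6 per library (CPM). Ratios of sums carry exact conditional binomial 95% intervals, shares Clopper-Pearson intervals and levels Poisson intervals, all of counting error only; with 1 library a group no p-value was computed. A gene was measured with at least 50 UMIs over both libraries and called at 2-fold with an interval that leaves out 1. List members within a class needed 20 UMIs. Against a count of 0, folds use 3 UMIs per library.

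Cells of the 4 libraries were clustered (scanpy 1.11.5, leidenalg 0.10.2, resolution 1.0, 2000 variable genes, 30 components). A cluster was named when at least 2 markers of a set were among its 20 leading genes and at least 4 among its 50. In addition, no other set could have more markers among its 10 leading genes. This threshold was set after seeing the data, so names may differ from those of the study. Doublet scores marked 0 wild-type and 296 knockout day 25 cells by their threshold, which did not work for wild type, so no cell was removed in the values reported and 763 and 1002 of the highest scores were left out as an alternative. Equal tissue shares weight each of 22 clusters with at least 10 cells in each library by its mean share of UMIs.

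Genes were named by rank of the interval bound nearest 0, with Tmprss3 and all ribosomal protein and mitochondrially encoded genes set aside: 15 higher and 15 lower over the whole libraries (at least 100 UMIs), 10 each way among genes with the same direction in 6 or more clusters, ranked by their median, and 5 each way in each class of at least 50 cells per library. Members of lists and marker sets are named besides. Of 27998 gene identifiers, 27645 matched the GENCODE annotation of GRCm38. Of 66 genes looked up by symbol, 47 had a promoter window in the RefSeq table of GRCm38.p6. Alternatives were other scalings, filters, UMI minima, clusterings and cell sets; leaving out the immune-like cluster or each gene's 10 highest cells was chosen after seeing the data. Scripts were tested on simulated data (Python 3.11.15, numpy 2.4.6, scipy 1.17.1, pandas 2.3.3).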

Additional observations from a re-analysis of the deposited data

Results flagged for a closer look

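Several day 25 ratios had the opposite sign in the day 35 pair of libraries; the difference between ages was not tested, since each age has 1 library per genotype. Lyz2 stood at 7.05 at day 25 and -0.80 at day 35, on the log2 scale used throughout. Of the genes lower at day 25, 1700013H16Rik moved from -4.88 to at least 6.40 (0 wild-type UMIs, set to 3, and 315 in knockout), Krt13 from -4.44 to 1.86, Stfa3 from -3.74 to 6.58 and Krt4 from -3.89 to 1.48. Krt1 moved from -2.83 to 4.15, Krt14 from -2.27 to 0.61 and Alx1 from -2.61 to 0.57. Dppa5a moved from -3.22 to 12.39, with 4 wild-type and 26620 knockout UMIs at day 35, where the pluripotent-like cluster held 320 knockout cells. Barx1 went from 1.55 to -1.50 and AY036118 from 1.44 to -0.16. The median of the keratinocyte markers went from -1.32 to 0.61 and that of the pluripotency markers from -3.22 to 8.47.

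Within day 25, the median of the Hox genes was 1.46 in fibrocyte or periotic mesenchyme-like cells, where every measured member was higher in knockout, and -1.79 in astrocyte-like cells and -1.38 in cluster 3, where every measured member was lower. This contrast between tissues of the same libraries was not tested.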

How the results depend on the processing

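The numbers of genes called higher and lower moved by over 1.5 times from 295 and 573 under these settings: a minimum of 200 UMIs gave 147 and 292, which leaves fewer genes to call, and equal weights of each cluster gave 190 lower; the cause of the latter was not tested. The other counts ranged from 197 to 418 higher and from 532 to 811 lower, and were 239 and 559 without each gene's 10 highest cells. The share of calls that were higher was 34.0%, and 58.7% at equal weights, where the immune-like cluster had no weight. Equal weights and the mean over each cell's own CPM were counted by the 2-fold ratio alone, with no interval. Clustering each library alone gave share ratios of 1.34 for myogenic progenitor-like, 1.08 for cycling-like and 1.63 for astrocyte-like cells, the last reversed. The ratio of 1.63 leaves out a wild-type cluster of 504 cells led by Fgfbp3, Fabp7 and Hes5, which stayed unnamed at that setting. The oligodendrocyte lineage-like ratio was 0.689 at resolution 2.0 and 0.668 with day 25 libraries alone. Apart from that naming, the causes were not tested. Within classes, Hp in astrocyte-like cells was -0.71 at resolution 0.5 and -0.82 without the highest doublet scores, which also gave -0.20 for Ptgds and 0.024 for Pomc in neuron-like cells. Of 25 marker sums, 23 moved beyond their counting interval without their 2 most abundant members and 1 changed sign (pericyte or smooth muscle, 0.37). The sign held in 498 of 498 recomputed values of genes named over the whole libraries and in 584 of 588 within classes. These genes were chosen for large ratios or a shared direction in these same libraries, so a held sign is no separate support. Values that could not be computed were left out, and at equal weights 38 of the 47 genes named over the whole libraries had one. H19 stayed between 2.01 and 2.14, Igf2 between -2.51 and -2.30, Cdkn1c between -3.90 and -3.64 and Grb10 between -5.08 and -4.68 over their alternatives. No paired analysis was possible because each group holds 1 library. Depth limits the rarer genes, since those under 50 UMIs over both libraries have no ratio here, and no setting replaces the missing replicates.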
